A study of Homo sapiens with 2 samples.

Results

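The members described here are 8 genes taken by name: the cancer-testis genes PASD1, DDX43, SSX2, MAGEA1, MAGEA3, MAGEA6 and MAGEA12 and the meiotic cohesin gene REC8. They are 8 of the 1806 genes that the authors deposited as differing between a pair of ovarian cancer cell lines. UWB1.289, titled UWB, is an established serous ovarian carcinoma line, and its genotype is labelled BRCA1 Knockout. Its partner, titled UWBBRCA, has the cell line label UWABRCA1 and the genotype label WT. Both were untreated, grew in the same medium and were profiled by strand-specific RNA sequencing after removal of ribosomal RNA, with 1 labelled sample each. The deposited value is a mean FPKM (fragments per kilobase of transcript per 1000000 fragments) for each line, so no spread or n can be given for any level here, and no test across samples was possible. The members were chosen by their FPKM in the 2 lines, so these levels and every measure of the same contrast are a description. Adjusted p-values are those of the authors' deposited table, from a test not given in the sources used here.

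Cancer-testis genes are active in the male germ line and silent in most adult tissues, and many of them are switched on again in tumours. Methylation of CG pairs in their promoters is a well-known part of that silencing, and many of them lie in multi-copy families on the X chromosome. REC8 belongs to meiosis itself: it is the kleisin subunit that takes the place of RAD21 in the cohesin ring of dividing germ cells.

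The 8 members did not share a direction. All 7 cancer-testis genes were lower in the BRCA1-deficient line, while REC8 was higher. Among all listed genes 46.5% were lower and 53.5% higher by FPKM. At 1 FPKM or more in either line there were 4 members, PASD1, DDX43, SSX2 and REC8. The 4 MAGE-A genes stayed below that level in both lines, as did 27.7% of all listed genes. On the scale of log2(FPKM + 1), 3 members were at least 2-fold lower and 1 at least 2-fold higher, where 22.5% and 25.3% of listed genes passed the same rule. By the fold in the authors' deposited table all 7 cancer-testis genes passed it, because adding 1 to an FPKM shrinks the change of a gene as low as the MAGE-A genes. Every listed gene of the gene lists used below passed it by that fold too, down to HDAC2 at -1.02. Passing it by that fold therefore does not set the members apart. BRCA1, the gene named in the genotype label of UWB, had 5.63 FPKM in UWB and 22.03 FPKM in its partner. Any other difference between the lines cannot be told apart from that of BRCA1 here. BRCA1 RNA was therefore lower but not absent in the line labelled a knockout, and the name BRCA1-deficient follows that label. A lower level in a line can mean fewer cells with the RNA or less RNA per cell, and these means cannot tell them apart.

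**Figure D1:**
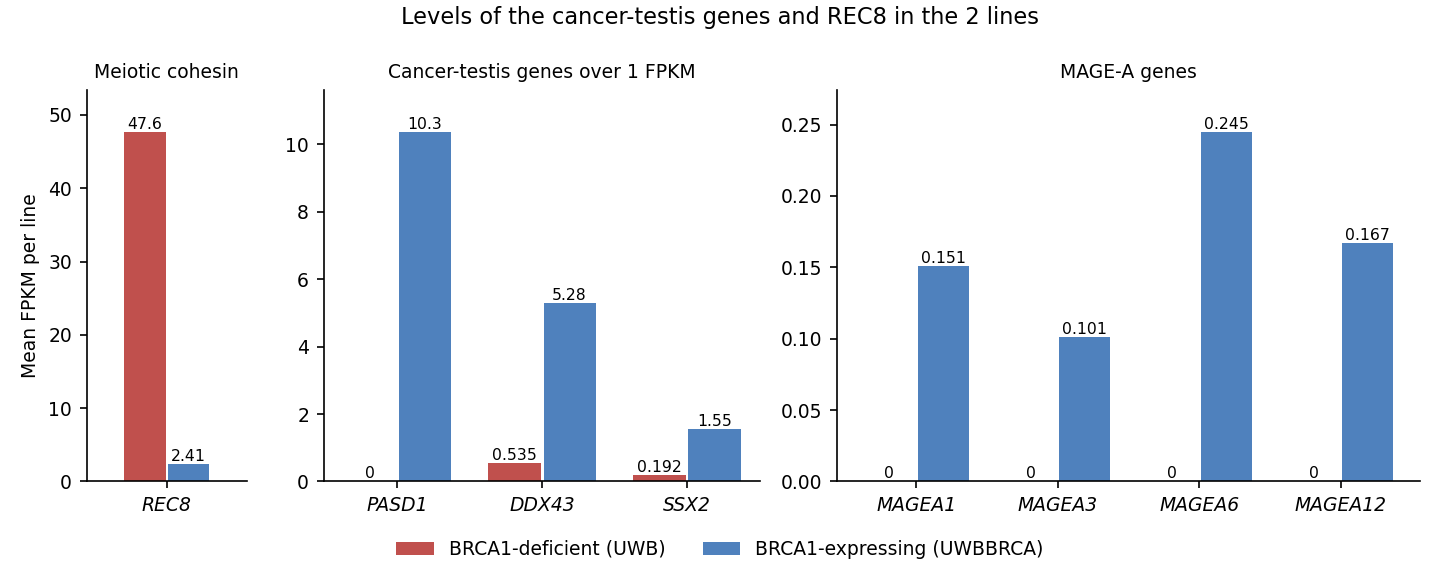
Mean FPKM of each member in the BRCA1-deficient line (red bars) and the BRCA1-expressing line (blue bars), with a separate axis starting at 0 for each panel. REC8 stands at 47.6 against 2.41 FPKM, and the 7 cancer-testis genes are higher in the BRCA1-expressing line, 5 of them from a listed level of 0. The bars are the authors' means and carry no error.

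REC8 was the most abundant member and was higher in the BRCA1-deficient line. REC8 (ENSG00000100918, chromosome 14, 24171853 to 24180257, plus strand, GRCh38, protein coding) had 47.6 FPKM in the BRCA1-deficient line and 2.41 FPKM in the BRCA1-expressing line, a ratio of 19.7. In the deficient line this level was above that of 96.01% of listed genes, and in the BRCA1-expressing line it was near the middle, above 51.0%. The authors' deposited table listed it with a log2 fold change of 4.55 (adjusted p 4.56e-22), the 15th smallest p-value listed. Its longest GENCODE transcript has 2720 bases, and no window of 100 bases in it occurs in an annotated transcript of another gene. Shorter or inexact matches were not searched. The annotation has its last 39 bases overlapping IPO4 on the opposite strand, which a stranded library can separate. The nearest listed genes on either side were higher too, beside 53.5% of all listed genes. Genes without a row, IPO4 among them, were not considered. NRL, a photoreceptor transcription factor 56.8 kb away, had 3.26 against 1.03 FPKM, and TGM1, a transglutaminase 68.9 kb away, had 12.1 against 1.57 FPKM. Both neighbours were looked up after their values were available.

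The 250 bases before the RefSeq start of REC8 are shown because methylation of CG pairs in a promoter is the background against which germline genes are usually read, and the CG pairs are in capitals. This stretch (chr14:24171830-24172079, GRCh38.p14, plus strand) holds 21 CG pairs. Most of it lies inside the gene as GENCODE places it, starting at 24171853, before the RefSeq start. Over 35116 RefSeq promoters of that length the median was 11, with quartiles of 3 and 23.
REC8: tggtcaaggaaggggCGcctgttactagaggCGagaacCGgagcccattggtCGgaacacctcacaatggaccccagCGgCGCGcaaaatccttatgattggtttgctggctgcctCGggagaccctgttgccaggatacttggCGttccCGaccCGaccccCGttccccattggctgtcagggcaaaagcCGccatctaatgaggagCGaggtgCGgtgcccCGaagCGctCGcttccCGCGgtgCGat

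Of 74 genes other than REC8 in a meiosis list, 4 had a row, beside 4.65% of the 38868 features in the authors' correction (1806 listed). The features are not all of the listed kind, so that share is approximate and a lower bound for genes of that kind. This holds wherever the share is given, and a list share above it does not show enrichment. All 4 were higher in the deficient line, beside 53.5% of all listed genes. Their median log2(FPKM + 1) difference was 1.11, beside 0.20 over all listed genes. MEIOB, which binds single-stranded DNA during meiotic recombination, had 9.50 FPKM in UWB and 2.98 FPKM in UWBBRCA. MAJIN, which in mouse tethers telomeres to the nuclear envelope in meiosis, had 3.92 against 0.989 FPKM. HSF2BP, a BRCA2-binding protein of meiotic recombination, had 2.94 against 1.08 FPKM. SHOC1, needed for crossovers in mouse, had 0.487 against 0.0578 FPKM and stayed below 1 FPKM in both lines. Adjusted p-values in the authors' deposited table ran from 4.59e-05 for MAJIN to 0.0214 for HSF2BP, with 0.000324 for MEIOB and 0.00729 for SHOC1. The 4 had log2 fold changes between 1.40 (HSF2BP) and 2.43 (SHOC1) in that table. Rescaling the lines to equal totals or centring them on the median ratio kept the direction of all 4 but lowered their median difference to 0.79 and 0.38, beside 0.13 and -0.01 over all listed genes. When centred, the differences were 0.53 for MEIOB, 0.57 for MAJIN, 0.24 for HSF2BP and 0.23 for SHOC1. Part of the reads of MEIOB and HSF2BP could be counted elsewhere: 7.91% of the 100-base windows of the longest MEIOB transcript also occur in LINC00254, and 6% of those of HSF2BP occur in CU639417.2. The synaptonemal complex and double-strand break genes of the list (SYCP1, SYCP3, SPO11, DMC1 and others) had no row and were not analysed here.

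In a list of 21 genes of cohesin and its regulators, REC8 and HDAC8 had rows, beside 4.65% of all features. HDAC8, the deacetylase that recycles the cohesin subunit SMC3, was lower in the deficient line at 5.81 against 11.05 FPKM. The authors' deposited table listed it at a log2 fold change of -1.16 (adjusted p 0.0241). It lies on the X chromosome, in the part described below where 42 of 51 listed genes (82.4%) were lower. RAD21, STAG3 and SMC1B were not analysed here.

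PASD1 was detected in the BRCA1-expressing line alone and heads the deposited table by p-value. It encodes a PAS-domain protein of the testis that is known to repress the CLOCK and BMAL1 circadian activators. PASD1 (ENSG00000166049, X chromosome, 151563675 to 151676739, plus strand, GRCh38) was listed at 0 FPKM in UWB and at 10.3 FPKM in UWBBRCA. No fold is given against a level of 0. It had the smallest p-value of the whole table, with an adjusted p of 1.52e-60 in the authors' deposited table. In all, 47 of the 1806 genes (2.6%) were at 0 in the deficient line, and PASD1 had the highest level of them in the other line. The next highest was KCNMB2 at 0.938 FPKM, and the median of the 47 was 0.0934 FPKM. PASD1 was therefore above 80.1% of listed genes in UWBBRCA and at the floor in its partner. In its longest transcript of 4098 bases, 6.55% of the 100-base windows also occur in the pseudogene AF274854.1, which lies within the PASD1 locus on the same strand.

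The 250 bases before the RefSeq start of PASD1 (chrX:151563425-151563674, GRCh38.p14, plus strand) hold 10 CG pairs, in capitals, close to the median of 11 over all promoters.
PASD1: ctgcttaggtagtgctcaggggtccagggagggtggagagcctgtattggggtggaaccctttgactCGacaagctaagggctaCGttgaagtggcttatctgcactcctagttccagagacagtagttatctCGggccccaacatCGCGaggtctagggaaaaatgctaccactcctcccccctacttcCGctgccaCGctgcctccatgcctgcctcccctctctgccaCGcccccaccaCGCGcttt

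**Figure D2:**
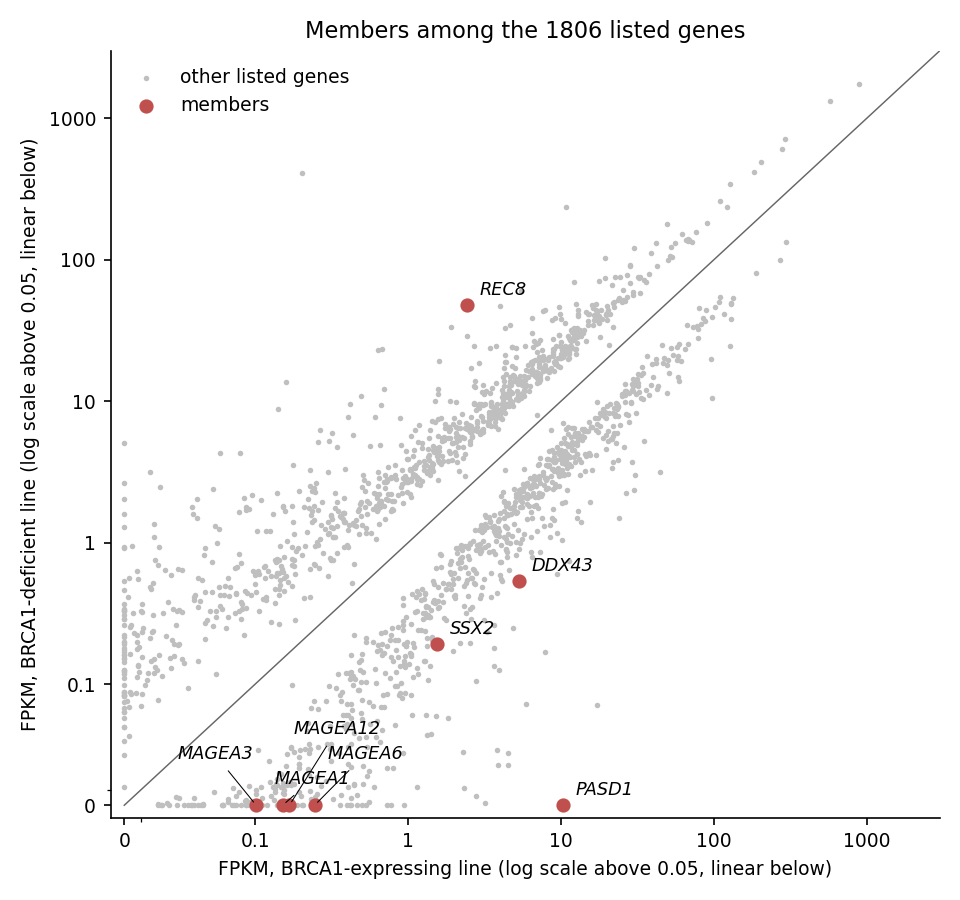
FPKM of the 1806 listed genes in the BRCA1-expressing line (horizontal axis) and the BRCA1-deficient line (vertical axis), with the 8 members in red and a line of equal level; both axes are logarithmic above 0.05 FPKM and linear below. REC8 lies far above the line of equal level, and PASD1 lies at 0 on the vertical axis and 10.3 FPKM on the horizontal, apart from the other genes at 0.

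DDX43, a DEAD-box RNA helicase and the member that lies on chromosome 6, was low but present in the deficient line. DDX43 (ENSG00000080007, 73394828 to 73417566, plus strand, GRCh38) had 0.535 FPKM in UWB and 5.28 FPKM in UWBBRCA, a level 9.88 times higher. The authors' deposited table gave a log2 fold change of -3.42 (adjusted p 2.81e-10), rank 114 by p-value. None of its 100-base windows occurs in another gene's transcripts. It overlaps OOEP at its start and CGAS at its end, both on the opposite strand and both not analysed here. Its nearest listed neighbours are remote and were higher, beside 53.5% of all listed genes: COL12A1, 1667 kb away, had 40.4 against 16.4 FPKM.

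The 250 bases before the RefSeq start of DDX43 (chr6:73394578-73394827, GRCh38.p14, plus strand) hold 16 CG pairs, in capitals.
DDX43: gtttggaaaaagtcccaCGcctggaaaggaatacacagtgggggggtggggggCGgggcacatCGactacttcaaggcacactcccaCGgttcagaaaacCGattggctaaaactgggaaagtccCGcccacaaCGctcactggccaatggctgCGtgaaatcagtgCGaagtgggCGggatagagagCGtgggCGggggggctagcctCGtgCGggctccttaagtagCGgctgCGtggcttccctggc

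SSX2 was lower in the deficient line together with its neighbours SSX7 and SSX2B. SSX proteins are nuclear transcriptional repressors, best known as the fusion partners of SS18 in synovial sarcoma. SSX2 (ENSG00000241476, X chromosome, 52696689 to 52707189, minus strand, GRCh38) had 0.192 FPKM in UWB and 1.55 FPKM in UWBBRCA, 8.07 times higher. The authors' deposited table listed a log2 fold change of -2.92 (adjusted p 7.87e-05). SSX2B, 43.9 kb from it, had 0.0832 against 1.05 FPKM (adjusted p 0.0331 in that table). SSX7, 41.8 kb away on the other side, was listed at 0 against 0.120 FPKM (adjusted p 0.0104). SSX2 and SSX2B cannot be read separately. Every 100-base window of the longest SSX2 transcript occurs in SSX2B, so how reads were divided between them sets each value. Of the windows of SSX7, 37.2% occur in another gene and 36.6% in SSX2B, so its value depends on that division in part.

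The shared sequence extends into the promoter. The 250 bases before the second RefSeq start of SSX2 and those before the start of SSX2B are identical at 250 of 250 positions, so a single stretch (from SSX2, chrX:52707179-52707428, GRCh38.p14, minus strand) is shown for both, with its 7 CG pairs in capitals.
SSX2 and SSX2B: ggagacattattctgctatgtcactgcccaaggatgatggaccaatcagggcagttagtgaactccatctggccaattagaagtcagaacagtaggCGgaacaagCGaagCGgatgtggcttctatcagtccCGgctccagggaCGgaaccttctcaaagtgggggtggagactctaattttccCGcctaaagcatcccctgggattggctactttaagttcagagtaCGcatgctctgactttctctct

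The 4 MAGE-A genes had a level of 0 in UWB and trace levels in UWBBRCA. MAGE-A proteins bind RING ubiquitin ligases, and MAGEA3 and MAGEA6 are known to direct TRIM28 against AMP-activated protein kinase. MAGEA6 (ENSG00000197172, X chromosome, 152766136 to 152769747, minus strand) had the highest of these levels in the BRCA1-expressing line, 0.245 FPKM. MAGEA12 (ENSG00000213401, 152733757 to 152737669, plus strand) had 0.167 FPKM there. MAGEA1 (ENSG00000198681, 153179284 to 153183880, plus strand) had 0.151 FPKM there, and MAGEA3 (ENSG00000221867, 152698767 to 152702347, plus strand) had 0.101 FPKM. With no spread for these means, the order among the 4 cannot be separated from error. Their adjusted p-values in the authors' deposited table were 1.63e-05 for MAGEA6, 0.000200 for MAGEA12, 0.000593 for MAGEA1 and 0.00527 for MAGEA3. All 4 levels lay above the median of 0.0934 FPKM of the genes listed at 0 in the deficient line.

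An FPKM multiplied by the length of the longest GENCODE transcript in kilobases is a number of fragments per 1000000, and for the 4 MAGE-A genes in the BRCA1-expressing line this ran from 0.179 (MAGEA3) to 0.431 (MAGEA6). The same measure was 42.4 for PASD1 in that line and 129.5 for REC8 in the deficient line. The depth of the libraries is unknown, so these cannot be turned into counts.

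MAGEA3 and MAGEA6 are near copies and share reads. Of the 100-base windows of the longest MAGEA3 transcript, 36.1% occur in MAGEA6. MAGEA1 and MAGEA12 have no such window in common with another gene, although MAGEA12 overlaps the pseudogene CSAG4 on its own strand. The 250 bases before the starts of MAGEA3 and MAGEA6 are identical at 250 of 250 positions, so again a single stretch (from MAGEA3, chrX:152698544-152698793, GRCh38.p14, plus strand) is shown, with its 15 CG pairs in capitals.
MAGEA3 and MAGEA6: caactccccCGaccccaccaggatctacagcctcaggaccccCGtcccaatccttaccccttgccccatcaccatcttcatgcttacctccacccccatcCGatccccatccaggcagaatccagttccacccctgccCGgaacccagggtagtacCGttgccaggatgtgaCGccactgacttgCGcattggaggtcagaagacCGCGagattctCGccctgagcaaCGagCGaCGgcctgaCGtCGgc

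Of the 8 members 7 matched a RefSeq promoter, MAGEA1 being the exception. MAGEA12 has a pair of listed starts, with 5 and 13 CG pairs in the 250 bases before them. A search of both strands for the E2F-type letters GGCGGGA found 2 matches in DDX43 and 1 in SSX2, and these letters are not in the window of PASD1, MAGEA3, MAGEA6, MAGEA12 or REC8. They occur in 13.5% of all promoters of that length. The E-box CACGTG, present in 6.34% of all promoters, is in none of the members' windows searched.

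**Figure D3:**
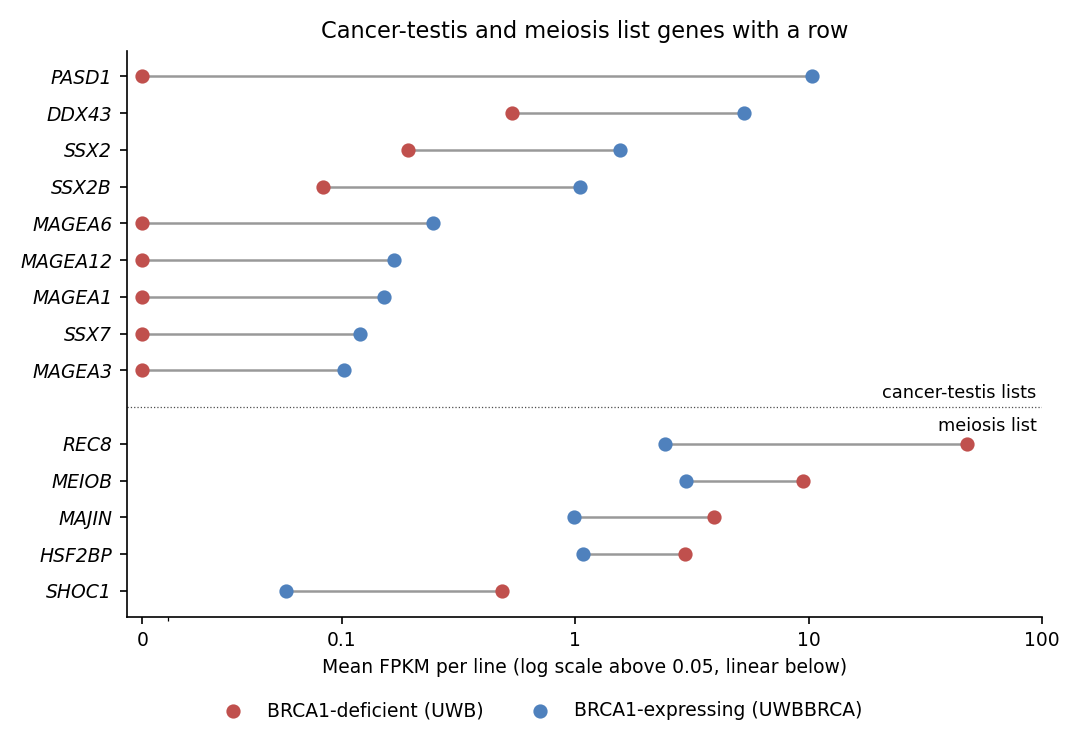
Mean FPKM in the BRCA1-deficient (red) and BRCA1-expressing (blue) line for each gene of the cancer-testis lists (upper block) and the meiosis list (lower block) that had a row, with the values of a gene joined by a line; the axis is logarithmic above 0.05 FPKM and linear below. All 9 cancer-testis genes have the blue point to the right and all 5 meiosis genes the red point.

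A wider list of 200 cancer-testis genes gave rows for 9, beside 4.65% of all features in the authors' correction. All 9 were lower in the deficient line, beside 46.5% of all listed genes. They are the 7 members with SSX2B and SSX7, so 8 of the 9 lie on the X chromosome. The list median on the log2(FPKM + 1) scale was -0.32, beside 0.20 over all listed genes, and 6 of the 9 were at 0 in the deficient line, beside 2.6% of all listed genes. The choice of members fixes most of this count. At 1 FPKM or more in either line 4 remained, PASD1, DDX43, SSX2 and SSX2B. Genes of the GAGE, XAGE, PAGE, CT45 and SPANX families, CTAG1B, PRAME and CTCFL had no row and were not analysed here, and neither were the widely expressed MAGE-D, MAGE-E and MAGE-F genes.

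The MAGE-A members lie in a stretch of the distal long arm of the X chromosome where most other listed genes went the other way. Within 5 Mb of the outermost MAGE-A member 21 genes were listed, 5 of them members (the 4 MAGE-A genes and PASD1). Of the other 16, 12 were higher in UWB and 4 lower. Between MAGEA3 and MAGEA1 themselves lie 3 listed genes that are no members, all higher. ZNF185, an actin-associated LIM protein, had 15.0 FPKM in UWB and 5.38 FPKM in UWBBRCA. PNMA3 had 2.44 against 0.241 FPKM and PNMA6A 2.53 against 0.229 FPKM; both are paraneoplastic antigen genes, and PNMA6A is 104 kb from MAGEA1. On the outer sides, ZFP92 had 0.444 against 0.0475 FPKM and GABRE, a GABA receptor subunit, 7.30 against 2.82 FPKM. The nearest listed gene to PASD1, PRRG3 at 17.9 kb, was lower with it, at 0.00201 against 0.0868 FPKM. All 6 of these neighbours had an adjusted p of at most 0.0408 (GABRE) in the authors' deposited table. Every listed gene was below 0.05 there, so this follows from their being listed.

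**Figure D4:**
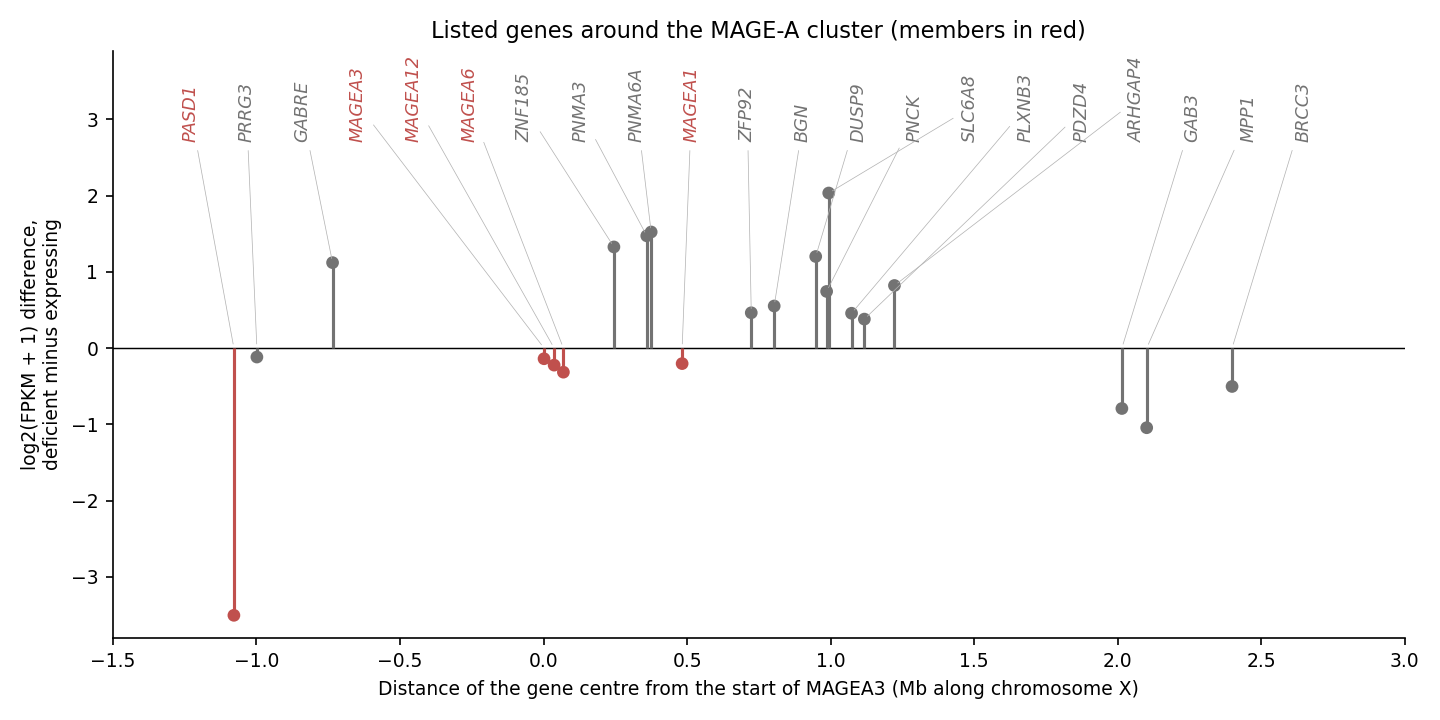
Difference in log2(FPKM + 1), deficient minus expressing, of the 21 listed genes around the MAGE-A cluster, against the distance of each gene from the start of MAGEA3 in Mb; members are red. The 4 MAGE-A genes have differences between -0.14 and -0.32, small on this scale at trace levels, while ZNF185, PNMA3 and PNMA6A between them point up by 1.33 to 1.52.

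The rest of the X chromosome leaned lower. Without the cancer-testis genes, 42 of the 51 listed X genes outside that stretch (82.4%) were lower in the deficient line, against 4 of 16 (25%) within it and 45.4% of listed genes on the other chromosomes. The stretch was set around the members and these shares were not tested. SSX2, SSX2B and SSX7 lie outside the stretch, and PASD1 and the MAGE-A genes lie within it. Whether position on X bears on the levels of these genes was not tested.

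Of 51 genes that set or remove the chromatin and DNA methylation marks of germline promoters 5 had a row, beside 4.65% of all features. That share is a lower bound for genes of the listed kind, so enrichment is not shown. Among them 4 were lower in the deficient line and 1 higher, beside 46.5% lower of all listed genes. HDAC2, a histone deacetylase, had 25.1 against 45.7 FPKM, ATF7IP, a partner of the methyltransferase SETDB1, 9.22 against 23.3 FPKM, and UHRF2, a ubiquitin ligase related to UHRF1, 6.08 against 17.3 FPKM. TET1, which oxidises methylated cytosine and so acts against methylation, had 0.233 against 0.711 FPKM. UHRF1, which brings DNMT1 to replicated DNA, was higher at 21.4 against 12.6 FPKM, but turned lower (-0.22 on the log2 scale) when the lines were centred on the median ratio. Adjusted p-values of these genes in the authors' deposited table lay between 0.0118 (UHRF2) and 0.0346 (TET1). DNMT1, DNMT3A, DNMT3B and SETDB1 were not analysed here. Whether these genes bear on the members was not tested.

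By level in both lines, REC8 was most like COL6A1 (33.6 against 1.91 FPKM), at a Euclidean distance of 0.54 on the log2(FPKM + 1) scale over the 2 line means, and HIST1H4F (47.1 against 4.01 FPKM, distance 0.55). PASD1 was nearest to NXPH2 (0.169 against 7.90 FPKM, distance 0.42) and CXCR4 (0.599 against 9.42 FPKM, distance 0.69). DDX43 was nearest to VGLL1 (0.644 against 4.55 FPKM, distance 0.20) and GALNT17 (0.813 against 5.07 FPKM, distance 0.25). With 2 means per gene such likeness describes the levels alone.

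Of 15 markers of serous ovarian and Mullerian epithelium 5 had a row, beside 4.65% of all features, a lower bound for genes of the listed kind. Among them 2 were higher and 3 lower in UWB, beside 53.5% and 46.5% of all listed genes. MUC16 (6.21 against 1.40 FPKM) and CD24 (21.3 against 10.1 FPKM) were higher. FOLR1 (2.80 against 6.56 FPKM) and WT1 (0.0130 against 0.155 FPKM) were lower, and ESR1 was listed at 0 against 0.0394 FPKM. PAX8, EPCAM and KRT7 were not analysed here. None of 5 leukocyte markers had a row.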

How the data were processed

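RNA from 1 labelled sample per line was sequenced from stranded, ribosomal RNA-depleted libraries, per the labels' protocols. The submitters' processing notes name HISAT2, StringTie 1.3.3b and the mouse build mm9, but the IDs are human: 1799 of the 1806 matched GENCODE release 29, and 1798 of these overlap their gene on GRCh38. FPKM was computed by the authors, and all 3612 deposited values were, within 0.02 of a step of the last decimal, means of 3 values, although the labels name 1 sample per line. The log2 fold change, p-value and adjusted p-value come from the authors, per the file headers, by a test not given in the sources used here. Library depth is unknown. The adjustment of the top gene corresponds to 38868 features and that of the last listed gene to rank 2716, so the table holds part of the called features and genes without a row are not shown to be unchanged.

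Differences are log2(FPKM + 1), deficient minus expressing, with a 2-fold size rule. Genes were counted by direction. Members and lists were chosen with earlier results of these data known. Named genes are the members, BRCA1, list genes with a row, the 6 listed genes nearest to a member around the MAGE-A cluster, and the 2 genes most like REC8, PASD1 and DDX43. Windows of 100 bases of the longest transcript were searched in GENCODE transcripts, sense strand. Promoters are RefSeq's (GRCh38.p14), and their starts can differ from the GENCODE gene bounds, so that some of the stretches shown reach into the gene. Counting was tested on simulated data. The alternatives tried were equal totals, centring, pseudocounts of 0.1 and 0.01, a minimum of 1 FPKM, a 4-fold rule, an adjusted p under 0.01 and the authors' fold. Python 3.11.15, numpy 2.4.6, pandas 2.3.3 and matplotlib 3.10.9 were used.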

Additional observations from a re-analysis of the deposited data

How the results depend on the processing

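No paired analysis was possible because each line has 1 labelled sample, and for the same reason no replicate could be left out. The direction of each of the 8 members was the same under every alternative run, as were the counts of 0 cancer-testis list genes higher and 0 meiosis list genes lower. For genes lower in the deficient line the pseudocounts and rescalings could not reverse it, since both rescalings lowered that line further. The rescalings could have reversed REC8 and the other meiosis list genes alone. The adjusted p under 0.01, the minimum of 1 FPKM and the 2-fold rule only drop genes, so they could not change a count of 0. The count of members at least 2-fold lower, 3 in the report, was 7 with a pseudocount of 0.1, 7 with 0.01 and 7 by the authors' fold. By the authors' fold every listed gene of the gene lists passed the rule, so that count does not set the members apart. The log2 difference of REC8 ran from 2.85 (centred) to 4.55 (authors' fold). With a minimum of 1 FPKM in either line, the lower cancer-testis list genes went from 9 to 4 and the lower genes around the MAGE-A cluster from 9 to 3. The 9 lower genes around the cluster include the 5 members there. On the 2-fold rule the lower cancer-testis list genes and the lower genes around the cluster numbered 3 and 2. The higher meiosis list genes went from 5 to 3 and the lower X genes, of 75 listed, from 54 to 18. Over all listed genes 22.5% were at least 2-fold lower and 25.3% at least 2-fold higher. With an adjusted p under 0.01 the lower X genes numbered 30. These counts shrink because fewer genes pass the rule. Rescaling moved the deficient line by -0.43 (equal totals) or -1.01 (centred) in log2 units, and the median over all listed genes went from 0.20 to 0.13 or -0.01. Around the MAGE-A cluster, 11 in place of 12 of the other 16 genes were then higher when centred. A table of selected genes cannot show how the lines should be scaled. The depth is unknown, so the precision of genes at trace levels, the MAGE-A genes among them, cannot be given.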

Other observations

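Germ cell genes outside the cancer-testis and meiosis lists went both ways. Of 45 genes in a germ cell and piRNA list 5 were listed, beside 4.65% of all features in the authors' correction. That share is a lower bound for genes of the listed kind. Among them 3 were higher and 2 lower in UWB, beside 53.5% and 46.5% of all listed genes. MOV10L1, a helicase of the piRNA pathway, had 2.24 FPKM in UWB and 0.596 FPKM in UWBBRCA. SOHLH2, a germ cell transcription factor, had 0.621 against 0.152 FPKM, and LIN28B, an RNA-binding repressor of let-7, 0.0692 against 0.00268 FPKM. POU5F1, the pluripotency factor, was lower at 2.32 against 5.64 FPKM, and so was the receptor KIT at 0.0689 against 0.660 FPKM. Adjusted p-values in the authors' deposited table lay between 0.000333 (KIT) and 0.0293 (POU5F1). The 3 higher genes kept their direction when the lines were rescaled to equal totals or centred, which could only lower the 2 others further. The germ cell markers DDX4 and DAZL were not analysed here.

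Of the markers of other cell types, 3 of 6 fibroblast genes had a row, beside 4.65% of all features. Among them 2 were lower and 1 higher in the deficient line, beside 46.5% and 53.5% of all listed genes. COL1A2 had 10.5 against 97.3 FPKM, PDGFRA was listed at 0 against 0.0216 FPKM, and PDGFRB at 0.0319 FPKM against 0. Of 4 endothelial genes KDR (3.15 against 0.298 FPKM) and CDH5 (13.4 against 4.64 FPKM) had a row, beside 4.65% of all features. Both were higher in the deficient line, beside 53.5% of all listed genes. The part of these markers in the levels of the cancer-testis genes and REC8 was not tested.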
